A study of Mus musculus with 7 samples.

Results

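The 9 genes described here encode the transcriptional repressor REST, partner proteins of its corepressor complex and the small C-terminal domain (CTD) phosphatases that act with it. They are *Rest*, *Rcor1*, *Rcor2*, *Kdm1a*, *Hdac1*, *Hdac2*, *Ctdsp1*, *Ctdsp2* and *Ctdspl*. They were chosen by name from the 48440 genes of the count table. All 9 passed the low-count filter and were among the 20019 genes tested.

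RNA was sequenced from whole mouse retinas at embryonic day (E) 16. Every library came from animals carrying Chx10-Cre, in which the *Chx10* promoter drives Cre recombinase in retinal progenitor cells. The 1 WT library carried Chx10Cre without a floxed allele. The 3 Het libraries were Chx10-Cre;Ptbp1lox/WT, with 1 floxed *Ptbp1* allele, and the 3 KO libraries were Chx10-Cre;Ptbp1lox/lox. Each library pooled several retinas of 1 genotype, so p-values measure the spread between pools. Cells of the eye outside the *Chx10* lineage, such as blood vessels and red blood cells, are not recombined by this driver. The study compared KO with Het to examine how loss of the splicing regulator PTBP1 affects embryonic progenitors. The single WT library has no replicate and is given as a value.

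REST (also called NRSF) binds a DNA element, RE1, near many neuronal genes and keeps them low in progenitors and non-neuronal cells. One arm of the protein recruits RCOR1 or RCOR2 (CoREST proteins) together with the histone demethylase KDM1A (LSD1) and the deacetylases HDAC1 and HDAC2. CTDSP1, CTDSP2 and CTDSPL (SCP1, SCP2 and SCP3) are phosphatases of the CTD of RNA polymerase II that are recruited to REST-bound genes. Earlier work placed PTBP1 in a loop with this machinery, in which the neuronal microRNA miR-124 lowers PTBP1 and the CTDSP phosphatases, and REST represses miR-124.

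The phosphatase genes are also hosts of a microRNA family. Mature microRNA positions were from RefSeq annotation of GRCm38.p6, and gene models from GENCODE M21 annotation of GRCm38. The mature sequences of *Mir26a-1* lie in an intron of *Ctdspl* and those of *Mir26a-2* in an intron of *Ctdsp2*. Those of *Mir26b* lie in an intron of *Ctdsp1*, and all are on the strand of their host. The annotated *Mir26a-2* locus as a whole overlaps an exon of *Ctdsp2* by 1 base. Mature miR-26 sequences are shown because the same seed (bases 2 to 8, in capitals) is shared by the products of all 3 loci. The mature miR-26a-5p lies at chr9:119031811-119031832 (plus strand) within *Ctdspl* and at chr10:126995543-126995564 (plus strand) within *Ctdsp2*. The mature miR-26b-5p lies at chr1:74394324-74394344 (plus strand) within *Ctdsp1*.
mmu-miR-26a-5p: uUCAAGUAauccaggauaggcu
mmu-miR-26b-5p: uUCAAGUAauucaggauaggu
The reverse complement of this seed, TACTTGA, was searched on the sense strand in the longest annotated 3′ UTR of each gene. Of the 9 genes, 3 held it once each, and they are shown with the match in capitals, counted from the first base of the UTR.
Rest, bases 349 to 355: gcttagtaaatTACTTGAagaatt
Rcor1, bases 2796 to 2802: taagcacctgtTACTTGAatattg
Ctdsp2, bases 1080 to 1086: agtgttgctctTACTTGAtttgcc
The same 7 letters occurred in 10.7% of 15770 tested genes with an annotated 3′ UTR. Those UTRs averaged 1.63 kb, whereas the UTRs of *Rest*, *Rcor1* and *Ctdsp2* were 3.45, 3.99 and 3.49 kb long, so they offer more positions for a match. No match was found in *Rcor2*, *Ctdsp1*, *Ctdspl*, *Hdac1*, *Hdac2* or *Kdm1a*. A match of letters is a description of the sequence and not evidence of a site in use.

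Libraries held 120593979 to 171117305 counts, and the 9 genes had between 4328 and 58819 counts each in any library. Levels are given as CPM (counts-per-million), scaled by TMM-adjusted library totals. *Ptbp1*, the targeted gene, was at 381 CPM in WT. It was at 210, 219 and 234 CPM in Het and at 27.9, 6.04 and 46.9 CPM in KO (log2 fold change -3.04, SE 0.635, adjusted p = 0.0316). The library labels and the targeted gene therefore went the same way in all 7 libraries. Markers of tissue next to the retina differed between libraries within a genotype. Summed skeletal muscle markers (14 tested genes) were at 377 CPM in Het1 against 11.3 to 14.1 CPM in the others, and summed pigment cell markers (5 tested genes) were at 519.6 CPM in Het1 against 19.1 to 58.7 CPM. Summed retinal markers were at 3006 CPM in WT, at 2868 to 2952 CPM in Het and at 2838 to 2855 CPM in KO. Every KO sum thus lay below every Het sum, by little. All 10 retinal markers were expressed in all 7 libraries.

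None of the 9 genes was differentially expressed between KO and Het, at an adjusted p below 0.05 with a change above 20% (edgeR's quasi-likelihood test, Benjamini-Hochberg adjustment over all tested genes). Under the same limits 7.22% of all tested genes were called. One gene, *Rcor1*, passed the adjusted p alone, which 11.1% of tested genes did, but its change stayed under the fold limit. At an unadjusted p below 0.05 there were 3 genes (*Rcor1*, *Ctdsp2* and *Kdm1a*), against 29.7% of all tested genes. DESeq2 also called 0 of the 9 under both limits, while the same 3 genes passed its adjusted p alone (0.00222, 0.0151 and 0.04). The median change of the 9 genes was -0.030 on the log2 scale against -0.0047 over all genes, with 4 higher and 5 lower in KO. In absolute terms the median was 0.077, against 0.155 over all tested genes. The 95% confidence interval lay within a 1.2-fold change in either direction for 6 of the 9 genes, against 35.7% of all tested genes. All 9 genes had at least 4328 counts in every library, while the tested genes included some with few counts. These comparisons were not matched for level. The intervals of *Rest*, *Rcor1* and *Ctdspl* reached beyond that limit, so a 20% change was not excluded for these 3. Libraries of KO and Het did not overlap in 4 of the 9 genes, against 36.3% of all tested genes. In bulk retina, fewer cells that express a gene and less RNA per cell cannot be told apart.

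**Figure D1:**
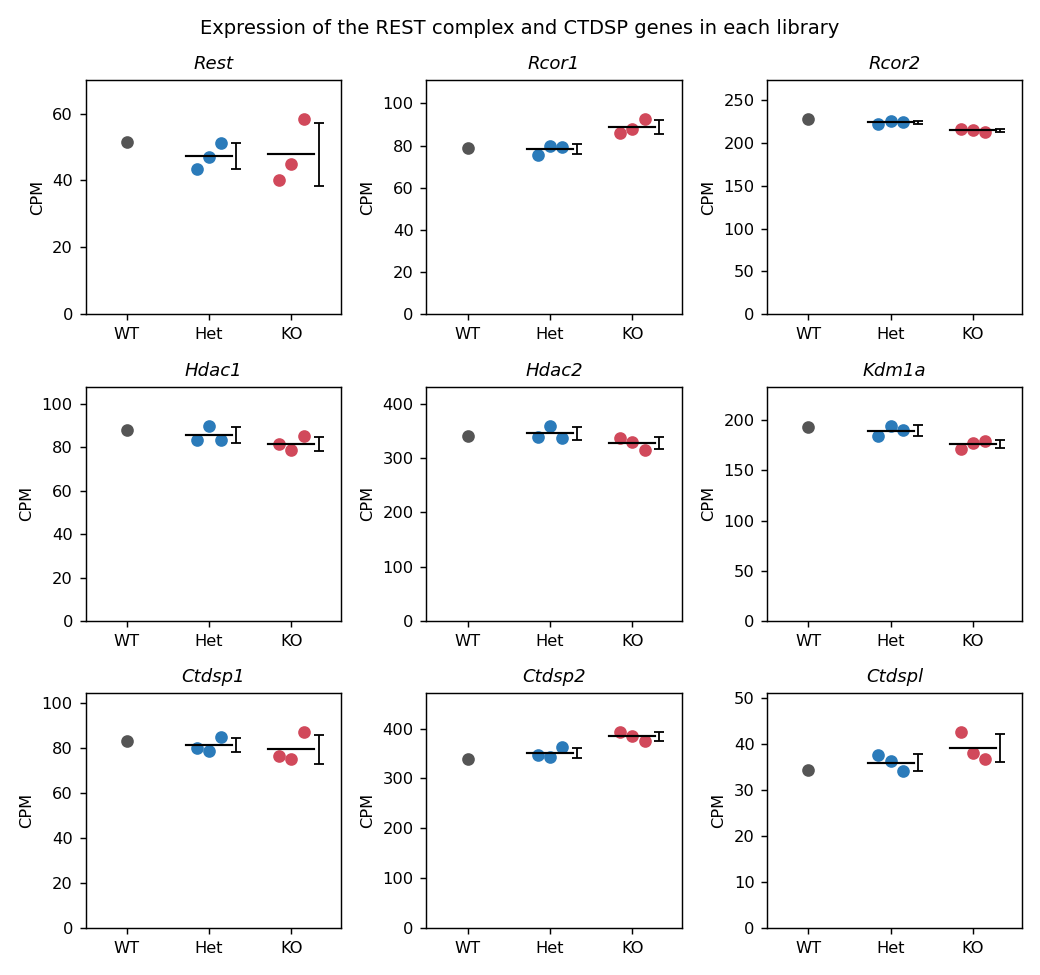
Normalized level (CPM, linear axis from 0) of the 9 genes in each library, by genotype, with points for the 7 libraries and bars for the mean and SD of the 3 Het and the 3 KO libraries. Het and KO libraries separate for *Rcor1*, *Rcor2*, *Ctdsp2* and *Kdm1a*, and *Rest* has its highest and its lowest value both within KO, at 58.4 and 40.2 CPM.

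*Rest* encodes the DNA-binding zinc finger protein (ENSMUSG00000029249.15, chr5:77265491-77286432, plus strand, in GENCODE M21 annotation of GRCm38). It was at 51.5 CPM in WT, at 43.5, 47.0 and 51.2 CPM in Het and at 40.2, 44.8 and 58.4 CPM in KO. The KO libraries enclosed all Het libraries, and the means were 47.2 ± 3.88 and 47.8 ± 9.48 CPM (SD, n = 3 each). The log2 fold change was 0.017 (SE 0.138, 95% interval -0.31 to 0.35, adjusted p = 0.947), which left room for a change of more than 20% in either direction. Its standard error was the largest among the 9 genes. Without KO3 the log2 difference was -0.15, with an adjusted p of 0.274, and without Het1 it was -0.04 (adjusted p = 0.892), so that the direction of the *Rest* estimate changed with which library was left out.

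*Rest* was highest in KO3, WT and Het3. These 3 libraries also had the highest summed red blood cell markers. The 7 marker genes summed to 338 CPM in WT, to 287, 188 and 527 CPM in Het, and to 36.5, 24.1 and 297 CPM in KO. The 2 libraries with the lowest sums, KO1 and KO2, held the lowest *Rest* value and the third lowest. Het1 did not follow this order. Its blood sum of 287 CPM was close to the 297 CPM of KO3, but its *Rest* level was 43.5 CPM against 58.4 CPM in KO3. All 7 blood markers peaked in Het3, and all 7 were lower in KO than in Het (median log2 fold change -1.51). None was called between KO and Het, against 7.22% of all tested genes. Het and KO libraries did not overlap in 2 of the 7, against 36.3% of all tested genes. Lens markers (7 tested genes) were also highest in Het3 and KO3, at 78.5 and 60.5 CPM, but at 14.6 CPM in WT. The part of blood and lens content in the spread of *Rest* was not tested.

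The genes whose level followed *Rest* most closely over the 7 libraries were *Chm*, *Ubfd1* and *Eaf1*. Their Pearson correlations with *Rest*, in log2(CPM + 0.5) among 13749 genes of at least 1 CPM on average, were 0.988, 0.985 and 0.977. *Chm* encodes a Rab escort protein that helps attach lipid anchors to Rab GTPases, and *Eaf1* a partner of the ELL transcription elongation factors. All 3 moved by little between genotypes, with log2 fold changes from 0.0036 to 0.015. The 7 points share their libraries and were searched over many genes, so the correlations are a description only.

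*Rcor1* encodes CoREST, the scaffold that joins KDM1A and the deacetylases to REST (ENSMUSG00000037896.17, chr12:111039351-111115901, plus strand). It was at 78.7 CPM in WT, at 75.6, 79.7 and 79.5 CPM in Het and at 86.0, 87.9 and 92.7 CPM in KO. Every KO library lay above every Het library and above WT. The means were 78.3 ± 2.32 and 88.8 ± 3.49 CPM (SD, n = 3 each), and the log2 fold change was 0.18 (SE 0.0392, 95% interval 0.089 to 0.28, adjusted p = 0.0334). Over all alternative settings the adjusted p ran from 0.00222 to 0.0966, and it was above 0.05 when any 1 of Het1, Het2, Het3 or KO2 was left out.

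*Rcor2*, its paralog, is known from neural progenitors and pluripotent cells (ENSMUSG00000024968.13, chr19:7267325-7275225, plus strand). It was at 228 CPM in WT, at 222, 226 and 224 CPM in Het and at 216, 215 and 213 CPM in KO. The groups did not overlap, and KO was the lower one. Its standard error was the smallest of the 9 genes, and the means were 224 ± 2.12 and 215 ± 1.62 CPM (SD, n = 3 each). The log2 fold change of -0.061 (SE 0.0263, 95% interval -0.12 to 0.0014) did not pass the test (adjusted p = 0.176).

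The balance of the CoREST paralogs was taken as the ratio of their counts within a library, which needs no normalization between libraries. This ratio and those of 3 other pairs were chosen after the values had been seen. *Rcor1* counts per *Rcor2* count were 0.345 in WT, 0.341, 0.353 and 0.354 in Het and 0.398, 0.408 and 0.436 in KO. Each KO library was above each Het library and above WT, and the mean in KO came to 118.5% of that in Het (0.414 ± 0.0194 against 0.350 ± 0.00725, SD, n = 3 each). An exact two-sided permutation test gave p = 0.1, the smallest value that 3 against 3 libraries allow (0.4 after Benjamini-Hochberg adjustment over the 4 ratios). *Hdac1* per *Hdac2* was 0.248 ± 0.0021 in Het and 0.250 ± 0.0171 in KO (SD, n = 3 each; exact permutation p = 1). *Ctdsp1* per *Ctdsp2* was 0.231 ± 0.00222 in Het and 0.207 ± 0.0213 in KO (exact permutation p = 0.3), where KO1 and KO2 were at 0.195 each and KO3, at 0.232, lay among the Het libraries. *Ctdspl* per *Ctdsp2* was 0.103 ± 0.00766 in Het and 0.102 ± 0.00577 in KO (exact permutation p = 0.9).

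*Kdm1a* encodes the demethylase that removes methyl groups from lysine 4 of histone H3 (ENSMUSG00000036940.15, chr4:136550540-136602723, minus strand). It was at 193 CPM in WT, at 184, 195 and 190 CPM in Het and at 171, 178 and 180 CPM in KO. All KO libraries lay below all Het libraries, with means of 176 ± 4.31 against 190 ± 5.24 CPM (SD, n = 3 each). The log2 fold change of -0.11 (SE 0.0343, 95% interval -0.19 to -0.024) did not pass the test (adjusted p = 0.0960).

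The class I deacetylases remove acetyl groups from histones. *Hdac1* (ENSMUSG00000028800.15, chr4:129516104-129542713, minus strand) was at 87.9 CPM in WT, at 83.4, 89.8 and 83.3 CPM in Het and at 81.3, 78.6 and 84.9 CPM in KO. *Hdac2* (ENSMUSG00000019777.16, chr10:36974544-37001889, plus strand) was at 341 CPM in WT, at 339, 359 and 337 CPM in Het and at 337, 329 and 315 CPM in KO. The groups overlapped in both genes. Their log2 fold changes were -0.068 (SE 0.0441, adjusted p = 0.344) and -0.077 (SE 0.0413, adjusted p = 0.262), and both intervals lay within the 1.2-fold limit.

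A processed pseudogene on chr17, *Gm10093*, matches an *Hdac1* transcript at 99.38% over 1444 bases and was counted at 8.89% to 12.2% of the *Hdac1* count. How reads with several matches were counted is not given in the sources used here, so the split between gene and copy is uncertain. *Gm10093* was at 9.07 CPM in WT, at 9.23, 10.6 and 10.1 CPM in Het and at 7.23, 9.17 and 8.11 CPM in KO (log2 fold change -0.29, SE 0.104, adjusted p = 0.121). With the copy added to the gene, the log2 ratio of the mean levels was -0.090 in place of -0.068.

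The CTD phosphatases differed in abundance more than in their response to genotype. *Ctdsp1* (ENSMUSG00000026176.13, chr1:74391509-74397285, plus strand) was at 83.0 CPM in WT, at 80.1, 78.7 and 84.6 CPM in Het and at 76.4, 75.2 and 86.9 CPM in KO. KO3 was the highest of all 7 libraries and KO1 and KO2 the lowest, so the KO libraries enclosed the Het libraries as they did for *Rest*. The log2 fold change was -0.030 (SE 0.0614, 95% interval -0.18 to 0.12, adjusted p = 0.775).

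*Ctdsp2* (ENSMUSG00000078429.8, chr10:126978717-126999975, plus strand) was at 339 CPM in WT, at 346, 343 and 362 CPM in Het and at 392, 385 and 375 CPM in KO. Every KO library lay above every Het library and above WT. The means were 351 ± 10.3 and 384 ± 8.82 CPM (SD, n = 3 each), and the log2 fold change of 0.13 (SE 0.0357, 95% interval 0.046 to 0.22) did not pass the test (adjusted p = 0.0625). Over the alternatives its adjusted p ran from 0.0151 in DESeq2 to 0.194 without Het2, and its change stayed under the fold limit in all of them. Its intronless copy *Gm9770*, a processed pseudogene with 99.51% identity over 811 bases, had 0.587% to 2.23% of the *Ctdsp2* count and went the other way. *Gm9770* was at 7.54 CPM in WT, at 6.92, 6.54 and 6.95 CPM in Het and at 2.30, 4.47 and 4.77 CPM in KO (log2 fold change -0.82, SE 0.258, adjusted p = 0.0887). With the copy added, the log2 ratio of the *Ctdsp2* means was 0.12 in place of 0.13.

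*Ctdspl* (ENSMUSG00000047409.13, chr9:118926453-119043998, plus strand) was at 34.5 CPM in WT, at 37.6, 36.3 and 34.1 CPM in Het and at 42.6, 38.1 and 36.9 CPM in KO. The groups overlapped, since KO3 lay below Het1. The log2 fold change was 0.12 (SE 0.0635, 95% interval -0.031 to 0.27, adjusted p = 0.251). Neither *Ctdspl* nor *Ctdsp1* therefore passed the test.

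The WT library lay inside the range of the Het libraries for 6 of the 9 genes, against 48.7% of all tested genes. The exceptions were *Rest* and *Rcor2*, above all Het libraries, and *Ctdsp2*, below all of them. None of the 9 genes in WT was more than 20% from the Het mean, against 7.78% of all tested genes, and the log2 ratios of WT to the Het mean ran from -0.064 for *Ctdspl* to 0.12 for *Rest*. With 1 WT library these values have no test.

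Levels can be compared between genes only per length, and CPM was divided by the kilobases of annotated exon (GENCODE M21, GRCm38) for that purpose. In the Het libraries the order from high to low was *Hdac2* (77.2 ± 2.76 CPM per kb, SD, n = 3), *Rcor2* (70.9 ± 0.671), *Ctdsp2* (63.5 ± 1.86), *Kdm1a* (36.6 ± 1.01), *Hdac1* (24.8 ± 1.09), *Ctdsp1* (24.3 ± 0.938), *Rcor1* (13.8 ± 0.41), *Ctdspl* (6.94 ± 0.34) and *Rest* (6.54 ± 0.538). Neighbouring genes overlapped between Het libraries in 2 places, *Hdac1* with *Ctdsp1* and *Ctdspl* with *Rest*. In KO, *Ctdsp2* (69.5 ± 1.6 CPM per kb) and *Rcor2* (68.0 ± 0.51) also overlapped, as did *Hdac2* (73.2 ± 2.51) with *Ctdsp2*. *Rest* had the lowest mean per length of exon, but it was above *Ctdspl* in 3 of the 7 libraries (WT, Het3 and KO3). *Rcor2* was the higher of the CoREST paralogs in all 7 libraries. Exons of all transcripts were merged, so a gene that mostly uses a short isoform is set too low.

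**Figure D2:**
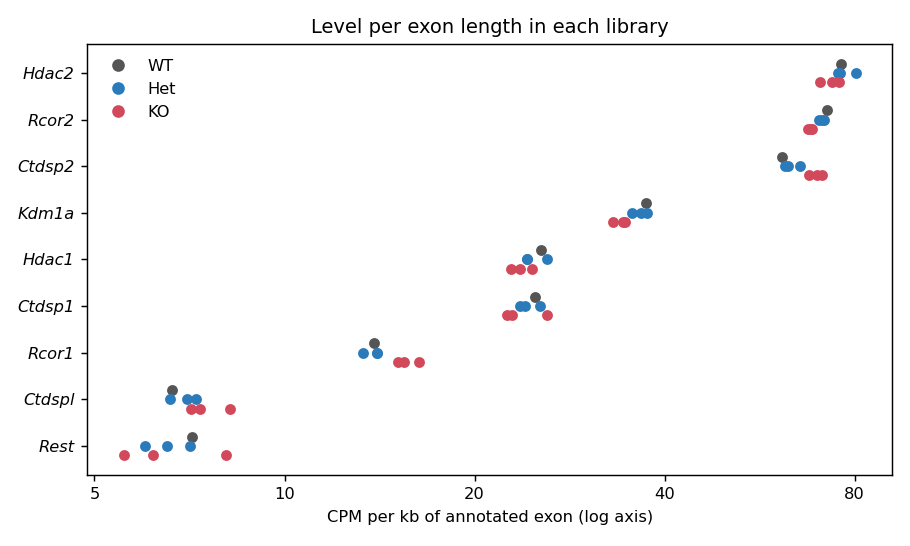
Level per kilobase of annotated exon (CPM per kb, log axis) of the 9 genes, ordered by the Het mean, with 1 point for each of the 7 libraries coloured by genotype. *Hdac2*, *Rcor2* and *Ctdsp2* lie near the top and *Ctdspl* and *Rest* at the bottom, at 6.94 and 6.54 CPM per kb on average in Het.

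Beyond the 9 genes, 7 paralogs were listed, namely *Rcor3*, *Ctdspl2*, *Ctdnep1*, *Ctdp1*, *Hdac3*, *Hdac8* and *Kdm1b*. None of the 7 was called in edgeR's quasi-likelihood test, which called 7.22% of all tested genes, or in DESeq2. An unadjusted p below 0.05 in edgeR was reached by 1, against 29.7% of all tested genes. In KO, 6 were lower (median log2 fold change -0.11), against 10200 of all 20019 tested genes. *Hdac3*, the deacetylase of the NCoR and SMRT complexes, had the highest CPM before any correction for length, at 96.6, 98.9 and 101 CPM in Het and 90.5, 92.7 and 91.6 CPM in KO. The *Hdac3* groups did not overlap. Its adjusted p of 0.0545 in edgeR narrowly missed the limit of 0.05, but its log2 fold change of -0.11 (SE 0.0284) stayed well under the fold limit. *Ctdnep1*, a nuclear envelope phosphatase that was the higher of these per kb of exon, was at 86.8 ± 4.14 CPM in Het and 82.2 ± 5.36 CPM in KO (SD, n = 3 each; log2 fold change -0.079, adjusted p = 0.393).

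Another 19 genes encode further subunits and partners of the REST corepressors, such as the SIN3 scaffolds, the histone-binding RBBP proteins, the H3K9 methyltransferases EHMT1 and EHMT2, and the CTBP proteins. None of the 19 was called by edgeR's quasi-likelihood test, which called 7.22% of all tested genes, or by DESeq2. An unadjusted p below 0.05 in edgeR was reached by 5, against 29.7% of all tested genes. Their log2 fold changes ran from -0.090 (*Cdyl*) to 0.15 (*Kdm5c*), with 14 higher and 5 lower in KO and a median of 0.037. Intervals lay within the 1.2-fold limit for 18 of the 19, the exception being *Kdm5c*, against 35.7% of all tested genes, a share not matched for level. Het and KO libraries did not overlap in 8 of the 19, a share near the 36.3% of all tested genes. *Smarca4*, the BRG1 ATPase that REST can recruit, was at 794 ± 37.0 CPM in Het and 747 ± 31.1 CPM in KO (SD, n = 3 each; log2 fold change -0.088, adjusted p = 0.289). *Ctbp1*, a corepressor that senses NADH, was at 450 ± 8.1 CPM in Het and 435 ± 20.5 CPM in KO (log2 fold change -0.051, adjusted p = 0.455).

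Genes that set the amount of REST were listed separately, and none of these 7 was called or had an unadjusted p below 0.05 (edgeR's quasi-likelihood test; DESeq2 called none either). Among all tested genes 7.22% were called in edgeR and 29.7% had an unadjusted p below 0.05. *Usp7*, a deubiquitinase that stabilizes REST, was at 235 ± 4.15 CPM in Het and 234 ± 0.303 CPM in KO (SD, n = 3 each; log2 fold change -0.0057, adjusted p = 0.909). *Fbxw11*, a β-TrCP ubiquitin ligase subunit of the kind that marks REST for degradation, was at 141 ± 1.68 CPM in Het and 138 ± 6.73 CPM in KO (log2 fold change -0.028, adjusted p = 0.674). *Srrm4* (nSR100), the neuronal splicing factor that switches *Rest* to a truncated isoform, was at 128 CPM in WT, at 122, 122 and 120 CPM in Het and at 126, 132 and 125 CPM in KO. Its groups did not overlap, but its log2 fold change of 0.073 (SE 0.031) did not pass the test (adjusted p = 0.173). Gene counts do not separate isoforms, so the *Rest* isoform itself was not measured here.

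**Figure D3:**
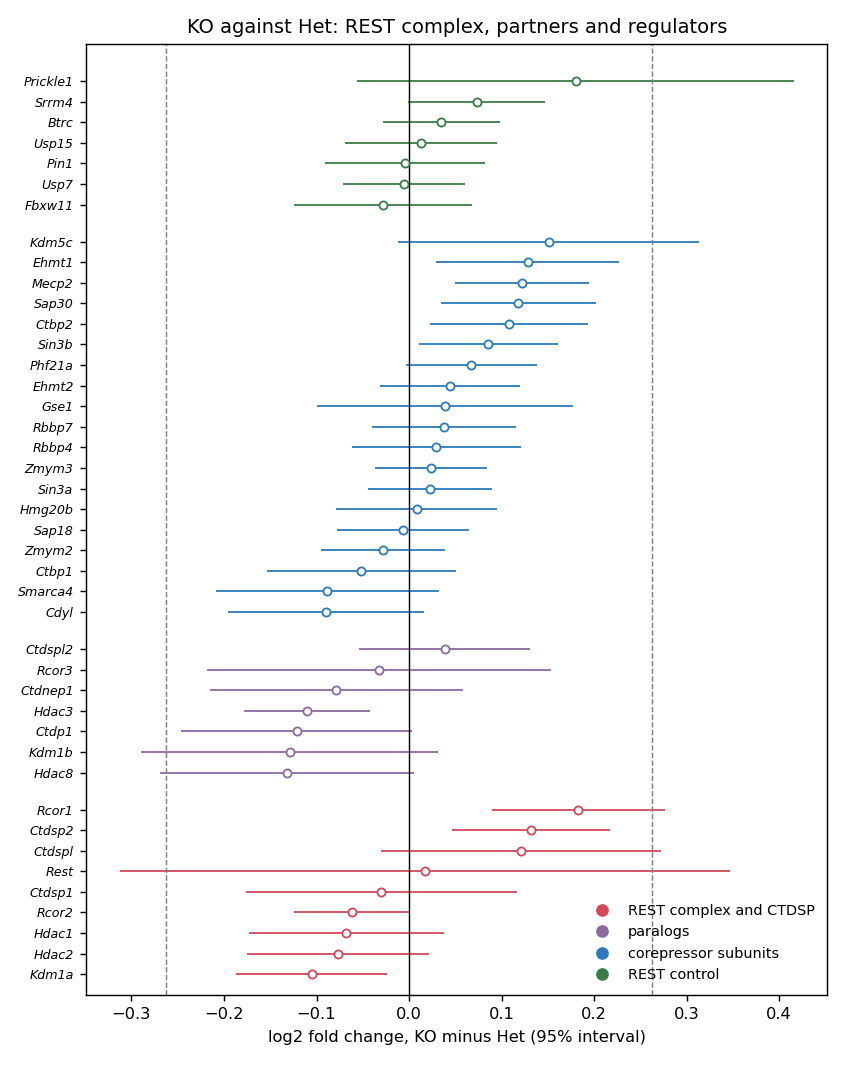
Log2 fold change of KO over Het with its 95% interval (edgeR's quasi-likelihood test) for the 9 genes, their paralogs, further corepressor subunits and genes that control REST, with vertical lines at 0 and at a 1.2-fold change in each direction. No gene of these lists met both limits, and 7 intervals cross a 1.2-fold line, those of *Rest*, *Rcor1*, *Ctdspl*, *Hdac8*, *Kdm1b*, *Kdm5c* and *Prickle1*.

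Neuronal genes described elsewhere as REST targets were examined next, from a list of 43, all tested. Between KO and Het, 12 of the 43 were called (27.9%, against 7.22% of all tested genes), of which 10 were higher and 2 lower in KO. The called shares over all tested genes were 4.01% higher and 3.21% lower. The median log2 fold change over the 43 was 0.075, with 25 higher and 18 lower, and the median absolute change was 0.174, against 0.155 over all tested genes. The list was chosen with earlier results of these libraries known, and it is not independent evidence of a direction. The number called depended on single libraries, with 4 when Het2 was left out, 5 without Het3 and 7 without KO2. Calls over all tested genes fell in the same fits, to 1.93%, 2.49% and 3.06%.

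The 3 largest rises were in transmitter genes of amacrine cells, the inhibitory interneurons of the inner retina. *Chat*, which makes acetylcholine, was at 0.0403 CPM in WT, at 0.0471, 0.0420 and 0.0725 CPM in Het and at 0.377, 0.274 and 0.315 CPM in KO, which is 5 to 11 counts in each Het library and 36 to 50 in each KO library (log2 fold change 2.55, SE 0.321, adjusted p = 0.00831). *Slc18a3*, the vesicular acetylcholine transporter gene that lies within the *Chat* locus, was at 1.997 CPM in WT, at 2.65, 1.91 and 1.58 CPM in Het and at 7.18, 5.08 and 4.87 CPM in KO (log2 fold change 1.48, SE 0.238, adjusted p = 0.0162). *Gad1*, which makes GABA, was at 3.57 CPM in WT, at 5.06, 3.88 and 3.85 CPM in Het and at 12.3, 11.8 and 10.9 CPM in KO (log2 fold change 1.45, SE 0.125, adjusted p = 0.00323). WT lay below all 3 KO libraries for each of these genes, within the Het range for *Slc18a3* and just below it for *Chat* and *Gad1*. The other genes that rose were *Scg2*, *Glra3*, *Gria2*, *Calb1*, *Nefh*, *Sez6* and *Scn2a1*, with log2 fold changes from 0.90 to 0.36.

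The 2 genes that fell were *Tubb3* and *Cacna1h*. *Tubb3*, the neuronal β-tubulin of young neurons, was at 1744 CPM in WT, at 1738, 1747 and 1703 CPM in Het and at 1375, 1448 and 1241 CPM in KO (log2 fold change -0.35, SE 0.0615, adjusted p = 0.0196). *Cacna1h*, a T-type calcium channel gene, was at 68.6 CPM in WT, at 76.1, 76.9 and 73.3 CPM in Het and at 59.1, 63.2 and 61.2 CPM in KO (log2 fold change -0.30, SE 0.0349, adjusted p = 0.00702). *Stmn2*, a tubulin-binding protein of growing axons and a classical REST target, passed the adjusted p but not the fold limit (log2 fold change -0.19, SE 0.0441, adjusted p = 0.0420). *Ina*, the α-internexin gene and the next in CPM of the list, was at 756 ± 42.4 CPM in Het and 745 ± 50.8 CPM in KO (SD, n = 3 each; log2 fold change -0.021, adjusted p = 0.852).

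Markers of young neurons moved in the same comparison. Of 11 such markers, 6 were called (54.5%, against 7.22% of all tested genes). *Tfap2a* and *Tfap2b*, which mark amacrine precursors, were higher and *Tubb3*, *Elavl4*, *Isl1* and *Gap43* lower in KO. The summed level of the 11 markers was 4775 to 4956 CPM in Het and 3942 to 4442 CPM in KO. *Tubb3* and *Stmn2* are in this list and in that of the REST targets, so the lists share genes. Of 8 progenitor markers, 2 were called (25%, against 7.22% of all tested genes), both lower. The summed level of these 8 overlapped between Het (6229 to 6444 CPM) and KO (6238 to 6525 CPM). The part of cell composition in the values of the REST targets was not tested.

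**Figure D4:**
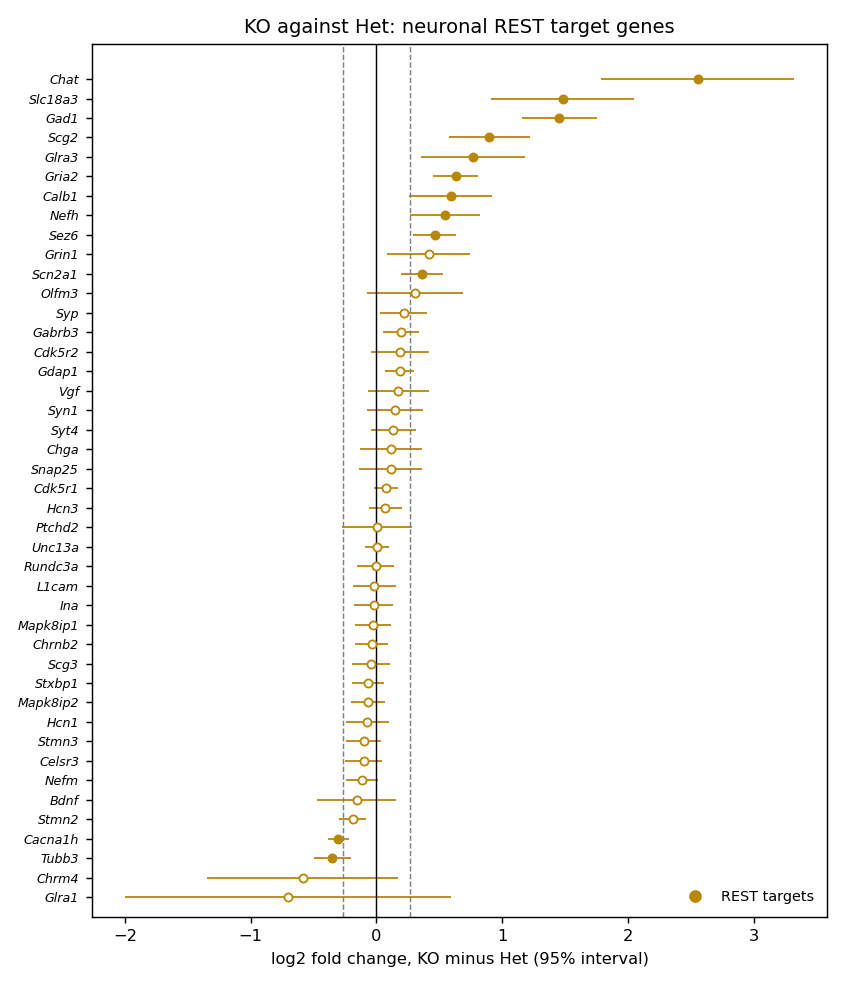
Log2 fold change of KO over Het with its 95% interval (edgeR's quasi-likelihood test) for 43 genes described as REST targets, ordered by estimate, with filled symbols for genes that met both limits. Of the 43 genes, 12 met them, 10 to the right of 0 and 2 to the left, and *Chat*, *Slc18a3* and *Gad1* lie farthest to the right among those called.

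The remaining arm of the proposed loop is miR-124. Mature microRNAs are not measured by these polyadenylated RNA libraries, and the 9 precursor loci of miR-124, miR-9 and miR-26 had 0 to 9 counts in any library. The long host transcripts were measured for 4 loci, and 1 of the 4 was called, against 7.22% of all tested genes. *Mir124a-1hg*, the host of a miR-124 gene, was at 15.6 CPM in WT, at 10.8, 9.36 and 9.52 CPM in Het and at 14.1, 21.0 and 20.5 CPM in KO. KO was above Het in every library, at 18.5 ± 3.81 against 9.88 ± 0.773 CPM (SD, n = 3 each; log2 fold change 0.91, SE 0.156, adjusted p = 0.0189). WT lay above all 3 Het libraries and within the KO range. The call was lost without Het2, Het3 or KO2, with adjusted p-values of 0.0815, 0.0752 and 0.0626, while the estimate stayed between 0.81 and 1.07.

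*Mir124-2hg*, the host with the highest CPM, was at 97.8 CPM in WT, at 69.5, 78.1 and 71.3 CPM in Het and at 61.3, 76.1 and 88.7 CPM in KO. WT was again above all Het libraries, and the KO libraries enclosed the Het libraries (log2 fold change 0.047, SE 0.127, adjusted p = 0.832). *C130071C03Rik*, which hosts a miR-9 gene, was at 44.2 CPM in WT, at 32.7, 34.3 and 33.2 CPM in Het and at 31.3, 37.8 and 49.5 CPM in KO (log2 fold change 0.24, SE 0.153, adjusted p = 0.327). *Mir9-3hg*, another miR-9 host, was at 4.14 CPM in WT, at 4.90, 4.36 and 4.38 CPM in Het and at 6.79, 5.45 and 5.37 CPM in KO (log2 fold change 0.37, SE 0.118, adjusted p = 0.0927). WT lay outside the range of the Het libraries for all 4 host transcripts, while it lay inside for 48.7% of all tested genes. The hosts of miR-26 are the phosphatase genes themselves, and their changes of -0.030, 0.13 and 0.12 for *Ctdsp1*, *Ctdsp2* and *Ctdspl* were not called.

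**Figure D5:**
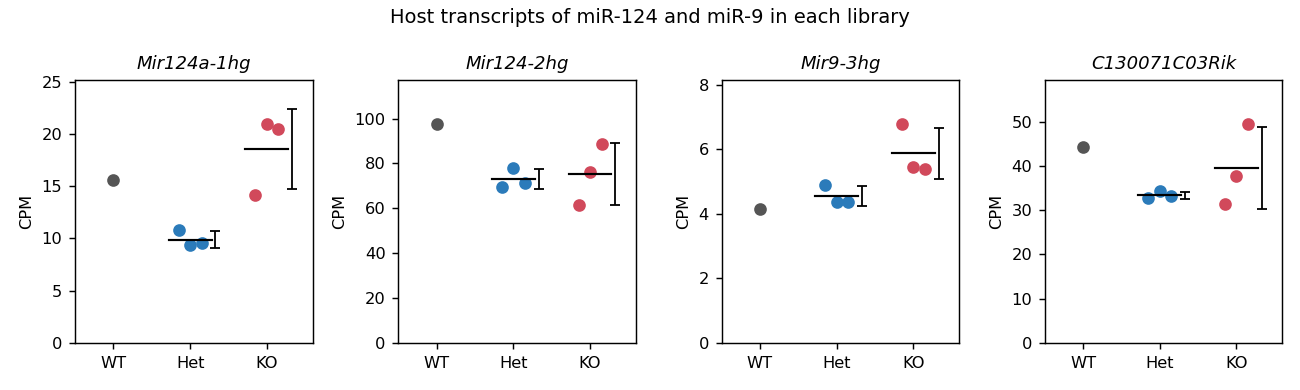
Normalized level (CPM) of the 4 measured host transcripts of miR-124 and miR-9 in each library, by genotype, with the mean and SD of the 3 Het and the 3 KO libraries. *Mir124a-1hg* is at 14.1 to 21.0 CPM in KO and at 9.36 to 10.8 CPM in Het, with the WT library at 15.6 CPM.

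Of 16 genes described as miR-124 targets, *Ptbp1* among them, 3 were called (18.8%, against 7.22% of all tested genes). In KO, 11 of the 16 were lower (median log2 fold change -0.048), against 10200 of all 20019 tested genes. *Ptbp1* is the targeted gene, so its call and its fall follow from the design. *Cdk6*, a G1 cyclin-dependent kinase, was the 1 called gene that rose. It was at 64.5 CPM in WT, at 48.7, 47.5 and 70.2 CPM in Het and at 98.1, 111 and 99.8 CPM in KO (log2 fold change 0.89, SE 0.153, adjusted p = 0.0188). *Vamp3*, a vesicle SNARE, fell from 56.8, 67.9 and 70.2 CPM in Het to 52.1, 49.7 and 53.3 CPM in KO (log2 fold change -0.33, SE 0.0798, adjusted p = 0.0466), with WT at 69.4 CPM. The *Cdk6* call was lost without Het2 or KO2 (adjusted p = 0.0727 and 0.0661), and that of *Vamp3* was lost on leaving out any of 5 of the 6 libraries. The 2 genes of the list with the highest CPM did not pass the test. *Lhx2*, a progenitor homeobox gene, was at 286 ± 6.81 CPM in Het and 291 ± 14.8 CPM in KO (SD, n = 3 each; log2 fold change 0.022, adjusted p = 0.772). *Itgb1*, the β1 integrin gene, was at 247 ± 3.68 CPM in Het and 244 ± 12.6 CPM in KO (log2 fold change -0.019, adjusted p = 0.795).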

How the data were processed

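Poly(A) RNA from 7 pools of E16 retinas was sequenced with a stranded kit. Per the labels and the study's methods, the authors aligned reads with STAR to GRCm38 and deposited raw read counts per gene from featureCounts. The strand setting and the treatment of multiply mapped reads are not given in the sources used here. Columns were matched to libraries by name, and there were 0 other value columns.

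Counts were analysed in R 4.3.3 with edgeR 4.0.16. Genes were kept by edgeR's filterByExpr, libraries were scaled by TMM (factors 0.988 to 1.03), and 1 quasi-likelihood model with WT, Het and KO as groups was fitted to all 20019 genes. The KO minus Het contrast was tested, with Benjamini-Hochberg adjustment over all of them. A gene was called at an adjusted p below 0.05 and a log2 fold change beyond 0.263 (a 1.2-fold change, the limits of the study). CPM were computed from the TMM-scaled library sizes. The fit was also run on simulated data in which 200 genes changed. Those data had 1 spread for all genes, smaller than the common dispersion of 0.046 estimated here. They therefore do not show how the fit performs at the spread of these libraries. Total counts per library were 120593979 to 171117305.

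The 9 genes and the gene lists (paralogs, corepressor subunits, genes controlling REST, REST targets, miR-124 targets, miRNA loci and cell type markers) were chosen with earlier results of these data known. One corepressor gene is not reported here. The text names all 9, *Ptbp1*, up to the 3 largest called rises and falls and the 2 genes of highest mean CPM in each list, and the 3 genes most correlated with *Rest*. Genes outside that rule were named after their values were seen. Alternatives were DESeq2 1.42.0 (the study's tool), another normalization, other filters, fewer libraries, a replicate block and other limits. Coordinates and exon lengths are from GENCODE M21, and microRNA sequences from RefSeq (GRCm38.p6). Of the 3 miR-26 loci all 3 were matched. Within Het and within KO, no pair of libraries had counts that agreed within sampling noise.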

Additional observations from a re-analysis of the deposited data

How the results depend on the processing

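None of the 9 genes was called under any alternative that kept both limits. With the adjusted p alone 1 of them passed (*Rcor1*), and 2221 genes in all in place of 1445. That number of members was 3 in DESeq2, 2 with at least 10 counts in every library or without KO3, and 0 without Het1, Het2, Het3 or KO2. Leaving out 1 library gave 386 to 1673 calls over all genes, with 386, 496 and 612 without Het2, Het3 and KO2, and 4 to 14 REST targets, 0 to 3 miR-124 targets and 0 to 1 miRNA host transcripts. DESeq2 called 2 host transcripts and, over all genes, 2070. With the replicate number as a block the fit called 1268 genes, 11 of the REST targets, 2 of the miR-124 targets and 0 of the 9 members. Labels do not say that equal numbers mark a shared litter or day, and the deviations of same-numbered libraries correlated at -0.143, 0.249 and -0.0063, with Het2 alone correlating best with its own number, so the numbers were not taken as pairs.

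Among the named genes, directions turned only in fits without 1 library, for *Rest* (-0.15 to 0.128 on the log2 scale, below 0 without Het1 at -0.04 and without KO3 at -0.15), *Ctdsp1* (-0.0956 to 0.00759, above 0 without Het3 at 0.00168), *Usp7* (-0.0154 to 0.00879), *Fbxw11* (-0.0663 to 0.00515), *Ina* (-0.0631 to 0.0351, with 0.0226 without Het1), *Lhx2* (-0.0133 to 0.059), *Itgb1* (-0.0591 to 0.00612) and *Mir124-2hg* (-0.0834 to 0.176). Calls of *Slc18a3* and *Tubb3* were lost in 2 such fits each and that of *Ptbp1* in 4, while *Gad1*, *Chat* and *Cacna1h* were called in all 6. The causes were not tested. Of the named genes that were called, *Chat* had the fewest counts, 5 to 11 in each Het library, and its fold is the least precise in counting.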
